A study of Homo sapiens with 9 samples.

Results

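A375P is an established human melanoma cell line with a mutant BRAF kinase. The cells described here had been held under an inhibitor of the RAF-MEK-ERK pathway for 24 h and were set against cells held under the same inhibitor for 6 h. The 4 arrays are 1 µM PD184352 at 24 h, 0.4 µM PLX4720 at 24 h, 1 µM PD184352 at 6 h and 0.4 µM PLX4720 at 6 h, 1 array each, chosen by treatment and time from the 9 arrays of the series. PD184352 inhibits the MEK kinases and PLX4720 inhibits RAF, and the inhibitors were given at different doses. The 2 DMSO arrays at 24 h and 6 h held cells with solvent alone and were used to show how far a gene moved with time in culture. All cells were of the same line, plated at the same density and grown in the same serum-containing medium. The series design speaks of triplicates, but the table analysed here holds 1 column for each treatment and time. The sources used here do not say whether a column is 1 array or a mean, and each is called an array.

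In the ERK pathway, RAF phosphorylates MEK, and MEK phosphorylates ERK, which enters the nucleus and drives transcription of immediate-early genes, ETS factors and cyclin D1. Cyclin D kinases then release E2F factors from the retinoblastoma protein, and E2F turns on the genes of DNA replication. The genes of mitosis are held down in quiescence and early G1 by the DREAM complex. ERK also induces its own inhibitors, the dual-specificity phosphatases and the Sprouty and Spred proteins. In melanoma, inhibition of this pathway is known for arrest in G1 and for a rise of pigment-cell genes.

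Levels below are log2(intensity + 1) of the deposited values, and a change is the level at 24 h minus the level at 6 h on that scale, averaged over both inhibitors. It understates the change of dim genes. Each change comes with limma's moderated standard error (SE) and a p-value adjusted by Benjamini-Hochberg over 19380 rows, with 0.05 as the threshold for a call. With 1 array for each inhibitor and time, the spread in this test is the difference between the 2 inhibitors in their 24 h minus 6 h change. The p-values therefore do not measure the spread between cultures. For arrays, their number limits the precision.

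The 9 arrays had similar medians, between 98.96 and 102.4 in intensity, and no pair of arrays held identical values. The 99th percentile lay between 1550 and 1654 on the 6 inhibitor arrays and between 1681 and 1754 on the 3 DMSO arrays. Of the melanocyte lineage list, 4 of 18 genes were among the dimmest 25% of genes. The same held for 3 of 7 keratinocyte and epithelial markers, 4 of 7 lymphoid and myeloid markers, 2 of 6 endothelial markers and 1 of 8 fibroblast markers. The melanocyte factors MITF and SOX10 were measured in all 4 inhibitor arrays: MITF read 10.44 (PD184352) and 10.30 (PLX4720) at 24 h, against 9.84 (PD184352) and 9.78 (PLX4720) at 6 h, and SOX10 read 10.79 (PD184352) and 10.66 (PLX4720) at 24 h, against 10.25 (PD184352) and 10.08 (PLX4720) at 6 h. Of the 28 markers of other cell types with a row, 2 were called: CD68, a macrophage lysosomal protein also made by other cells, at 0.34 (SE 0.0721, adjusted p = 0.0364) and the proteoglycan DCN at 0.34 (SE 0.0731, adjusted p = 0.0386). Neither call held when any 1 of the 4 arrays was left out. In bulk RNA, fewer cells of a type and less RNA per cell cannot be told apart.

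Between 6 h and 24 h under inhibitor the cells lost transcripts of mitosis, DNA replication, DNA repair and histones, and to a smaller extent those of ribosome assembly and amino acid supply. They gained transcripts of part of the lists for the extracellular matrix, the neural crest, pigment cells and the interferon response. The largest fall was that of ETV4, an ETS transcription factor and ERK target, at −2.57 (SE 0.138, adjusted p = 0.00242). The largest rise was that of ANGPTL7, a secreted angiopoietin-like protein, at 4.16 (SE 0.0967, adjusted p = 0.00242), or 17.9-fold. Of 17047 genes, 1486 (8.72%) were higher at 24 h and 1686 (9.89%) were lower, 3172 (18.6%) in all, and these shares are the background for every list below. A change of at least 2-fold was seen in 129 (0.757%) of the genes called higher and 267 (1.57%) of those called lower, as shares of all genes. In DMSO cells, with 1 array at each time and no test, 5 genes (0.0293%) were higher and 3 (0.0176%) were lower by at least 2-fold. With PD184352 alone these counts were 154 higher (0.903%) and 330 lower (1.94%), and with PLX4720 alone 131 higher (0.768%) and 227 lower (1.33%), again without a test. All called genes had the same sign with both inhibitors, but the fit could not have called a gene with opposite signs. Its residual spread is the difference between the inhibitors. The smallest adjusted p was 0.00242, which many of the largest changes share.

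2 limits bear on these counts. Taking off the change in DMSO cells, which rests on 1 DMSO array at each time, left 49 genes higher and 49 lower, while 2842 genes had an unadjusted p below 0.05. Since 3 arrays leave the 4-array fit no residual degree of freedom, arrays were left out of a fit that also held both 2 h inhibitor arrays. All counts below without 1 array come from this larger fit. For some lists its count differed from the one given first before any array was left out. With all 6 arrays it called 1502 genes higher and 1799 lower. In it, with the lone array assumed to vary like the others, leaving out the PD184352 24 h array left 783 genes higher and 977 lower, leaving out the PLX4720 6 h array left 910 higher, and leaving out the PD184352 6 h array left 944 lower.

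**Figure D1:**
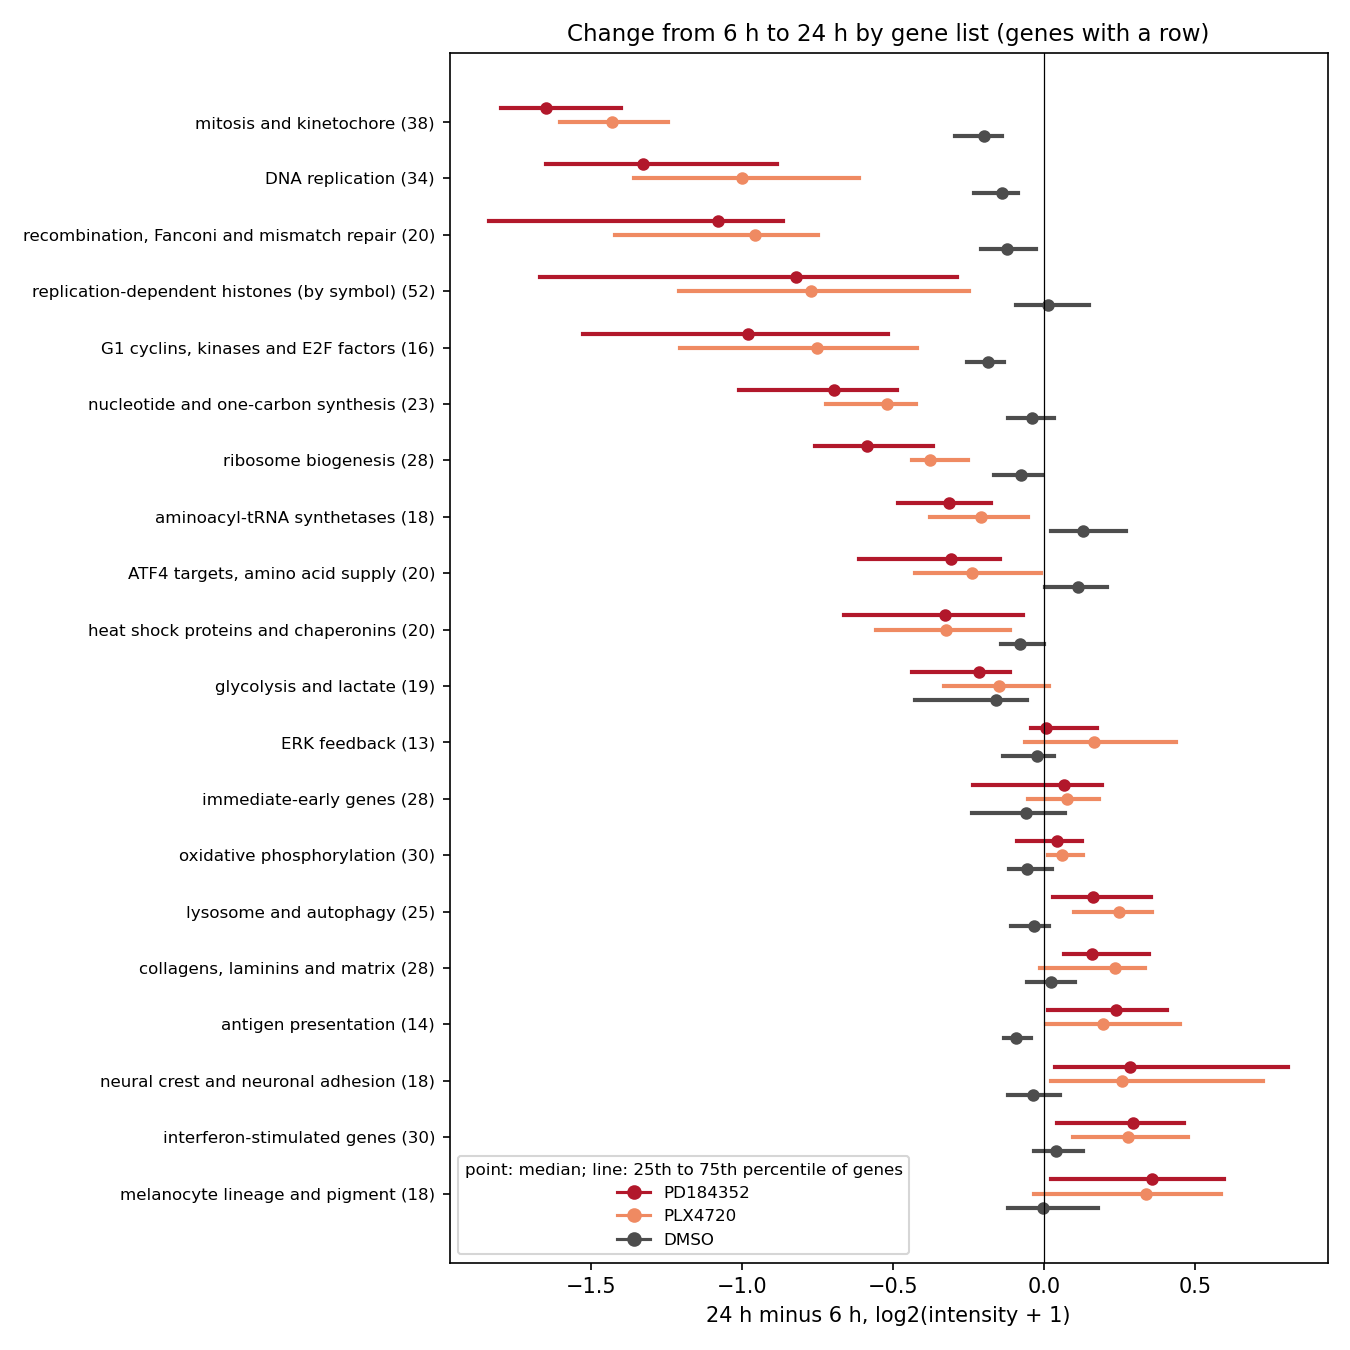
Median change between 6 h and 24 h (24 h minus 6 h, log2 scale, x axis) for 20 gene lists, with the number of genes with a row in brackets. Points are medians and lines run from the 25th to the 75th percentile of the genes, for PD184352, PLX4720 and DMSO, 1 pair of arrays each. The mitosis list has medians of −1.65 with PD184352, −1.43 with PLX4720 and −0.20 in DMSO cells.

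All 38 mitosis and kinetochore genes with a row fell, against 9.89% of all genes, and each fell by at least 2-fold. Their median change was −1.55, against 0.0043 over all genes and −0.20 for the same genes in DMSO cells. CDK1, the kinase that starts mitosis, read 6.96 (PD184352) and 7.21 (PLX4720) at 24 h, against 9.32 (PD184352) and 9.09 (PLX4720) at 6 h. In DMSO cells CDK1 read 9.34 at 24 h, against 9.35 at 6 h. The inhibitor arrays at 24 h thus stood apart from both the 6 h arrays and the DMSO arrays, with a change of −2.12 (SE 0.129, adjusted p = 0.00246). KIF11, the motor that pushes spindle poles apart, changed by −2.02 (SE 0.096, adjusted p = 0.00242) and by −0.33 in DMSO cells. TTK, a kinase of the spindle checkpoint, changed by −2.02 (SE 0.0866, adjusted p = 0.00242), and NDC80, which ties kinetochores to microtubules, by −1.999 (SE 0.089, adjusted p = 0.00242). MKI67, the Ki-67 proliferation marker, read 9.23 (PD184352) and 9.31 (PLX4720) at 24 h, against 11.13 (PD184352) and 11.01 (PLX4720) at 6 h, a fall at adjusted p = 0.00242. At 6 h the list stood at the DMSO level, with a median inhibitor minus DMSO difference of −0.02, and at 24 h this difference was −1.29. Of the 38 genes, 19 were called with the DMSO change taken off, and all 38 were called whichever of the 4 arrays was left out. ERCC6L, a DNA translocase of mitotic centromeres outside this list, read 6.06 (PD184352) and 6.70 (PLX4720) at 24 h, against 9.03 (PD184352) and 8.74 (PLX4720) at 6 h. Its fall was −2.97 with PD184352 and −2.04 with PLX4720.

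Promoters of these genes are shown because the genes fell together and because mitotic genes share known promoter elements. The cell cycle homology region (TTTGAA) and the CCAAT box bound by NF-Y are such elements. RefSeq windows of 250 bases before the gene start were searched for both on either strand (assembly GRCh38.p14, first listed start of each gene). Among the 33 mitosis genes that fell and have a window, 15 (45.5%) held TTTGAA, against 10.8% of the 13310 measured genes with a window and 13.6% of 27305 RefSeq genes, and 25 (75.8%) held CCAAT, against 34.1% of measured and 33.0% of RefSeq genes. Within the last 60 bases, 8 of the 33 (24.2%) held TTTGAA, against 1.85% of measured and 2.72% of RefSeq genes. Over all 1398 genes called lower with a window the shares were 13.4% for TTTGAA and 40.5% for CCAAT. Since all 38 mitosis genes with a row fell, the shares of the mitosis genes are those of the list as chosen. They do not depend on the values measured here. A match is a description of the letters and not a measured site. The last 110 bases before the start follow for 4 genes, read 5′ to 3′ on the gene's strand with TTTGAA and CCAAT, or their reverse complements TTCAAA and ATTGG, in capitals. They are examples from the list that fell and hold both motifs in this window, chosen after the values were seen. They are not a ranking, since not every gene of the list was open to this choice. KIF11 lies at chr10:92593020-92593129 on the plus strand, MKI67 at chr10:128126424-128126533 on the minus strand, PLK1 at chr16:23678779-23678888 on the plus strand and DLGAP5 at chr14:55191586-55191695 on the minus strand.
KIF11: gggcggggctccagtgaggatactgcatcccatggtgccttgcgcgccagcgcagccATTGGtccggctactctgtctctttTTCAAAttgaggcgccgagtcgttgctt
MKI67: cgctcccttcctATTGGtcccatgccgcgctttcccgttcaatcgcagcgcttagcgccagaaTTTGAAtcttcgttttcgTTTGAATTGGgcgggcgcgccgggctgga
PLK1: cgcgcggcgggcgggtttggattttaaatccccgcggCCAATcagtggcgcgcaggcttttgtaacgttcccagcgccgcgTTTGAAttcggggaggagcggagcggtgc
DLGAP5: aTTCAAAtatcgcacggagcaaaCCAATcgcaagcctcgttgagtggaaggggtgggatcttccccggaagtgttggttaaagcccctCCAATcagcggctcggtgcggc
In KIF11, MKI67 and PLK1 a TTTGAA or its complement begins 28, 29 and 29 bases before the start, while in DLGAP5 it begins 109 bases before it. In MKI67 the second TTTGAA shares 1 base with an ATTGG. PLK1, the polo kinase of mitotic entry, changed by −1.71 (SE 0.101, adjusted p = 0.00242), and DLGAP5, a spindle protein, by −1.61 (SE 0.0829, adjusted p = 0.00242).

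Of 34 DNA replication genes, 31 fell, with a median change of −1.20 over the list and −0.14 in DMSO cells. CDC45, a subunit of the replicative helicase, read 7.79 (PD184352) and 8.41 (PLX4720) at 24 h, against 10.15 (PD184352) and 10.12 (PLX4720) at 6 h. DMSO cells read 10.11 at 24 h, against 10.24 at 6 h. MCM10, which activates that helicase, read 6.86 (PD184352) and 7.52 (PLX4720) at 24 h, against 9.18 (PD184352) and 9.02 (PLX4720) at 6 h. Both genes were lower on each 24 h inhibitor array than on any other of the 9 arrays. The change was −2.04 (SE 0.163, adjusted p = 0.00346) for CDC45 and −1.91 (SE 0.198, adjusted p = 0.00581) for MCM10. CLSPN, which relays replication stress to the checkpoint kinase CHK1, changed by −1.996 (SE 0.131, adjusted p = 0.00269), and RFC3, part of the clamp loader, by −1.95 (SE 0.151, adjusted p = 0.00322). DTL, a subunit of the ubiquitin ligase that removes the licensing factor CDT1, changed by −2.22 (SE 0.217, adjusted p = 0.00514). The 3 list members that were not called were PRIM2 (−0.29), FEN1 (0.03) and PCNA (0.23). With the DMSO change taken off, 0 of the 34 were called, although the list median then was −1.12, against −1.29 for the mitosis list. The calls of that fit all lay just under the threshold, so this count does not set the list apart from mitosis.

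The E2F motifs searched in these promoters were TTTCCCGC, TTTGGCGC and TTTCGCGC, on either strand. Of 26 replication genes that fell and have a window, 8 (30.8%) held at least 1, against 3.19% of the measured genes, 2.38% of all RefSeq genes, 6.65% of the genes called lower and 2 of the 33 mitosis genes (6.06%). TTTGAA was found in 0 of the 26 and CCAAT in 14 (53.8%), against 34.1% of the measured genes for CCAAT. For 4 replication genes that fell and hold an E2F motif there, the last 110 bases are printed in the same way. E2F and CCAAT motifs are in capitals. These genes too are examples chosen after the values were seen, and not a ranking by size. RFC3 lies at chr13:33818039-33818148 on the plus strand, POLE at chr12:132687343-132687452 on the minus strand, POLA2 at chr11:65261852-65261961 on the plus strand and GINS2 at chr16:85688955-85689064 on the minus strand.
RFC3: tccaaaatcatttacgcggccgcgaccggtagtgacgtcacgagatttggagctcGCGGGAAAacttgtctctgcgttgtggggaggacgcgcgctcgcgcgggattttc
POLE: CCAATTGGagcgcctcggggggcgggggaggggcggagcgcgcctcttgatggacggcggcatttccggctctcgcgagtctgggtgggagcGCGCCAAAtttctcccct
POLA2: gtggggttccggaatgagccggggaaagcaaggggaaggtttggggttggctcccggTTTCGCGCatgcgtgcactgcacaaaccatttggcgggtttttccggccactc
GINS2: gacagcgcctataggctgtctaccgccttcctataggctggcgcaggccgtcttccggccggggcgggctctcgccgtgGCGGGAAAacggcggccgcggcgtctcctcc
The E2F motif begins 55 bases before the start in RFC3, 18 in POLE, 53 in POLA2 and 31 in GINS2, on the strand opposite to the spelled motif in all but POLA2. POLE, the catalytic subunit of the leading-strand polymerase, changed by −1.57. POLA2, a subunit of the polymerase alpha-primase complex, changed by −1.49, and GINS2, a part of the replicative helicase, by −1.16.

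Genes of recombination, the Fanconi pathway and mismatch repair behaved alike, with 19 of 20 lower and a median of −1.01. EXO1, a DNA exonuclease, read 8.10 (PD184352) and 8.69 (PLX4720) at 24 h, against 10.50 (PD184352) and 10.55 (PLX4720) at 6 h, with a change of −2.13 (SE 0.141, adjusted p = 0.00269). XRCC2, a protein of homologous recombination, changed by −2.07 (SE 0.155, adjusted p = 0.00314), BRIP1, a helicase that binds BRCA1, by −1.96 (SE 0.142, adjusted p = 0.00302), and the helicase BLM by −1.71 (SE 0.151, adjusted p = 0.00408). RMI2 (−0.24) was the member that was not called. With the DMSO change taken off, 0 of the 20 were called, although the list median then was −0.97. Of the 17 that fell and have a promoter window, 10 (58.8%) held CCAAT, 2 (11.8%) TTTGAA and 0 an E2F motif.

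Replication-dependent histone genes, taken by symbol in a list chosen after values were seen, fell in 38 of 52 cases, with a median of −0.82 and 0.01 in DMSO cells. H1-1, a linker histone, read 8.73 (PD184352) and 9.15 (PLX4720) at 24 h, against 11.16 (PD184352) and 11.01 (PLX4720) at 6 h, a change of −2.15 (SE 0.146, adjusted p = 0.00275). H2BC3 changed by −2.12 (SE 0.126, adjusted p = 0.00242) and H2AC4 by −2.09 (SE 0.12, adjusted p = 0.00242). H1-5 changed by −2.50 with PD184352 and −1.32 with PLX4720. Histone genes are near-identical copies, and how the array splits their signal between copies was not tested. Of the 34 that fell and have a promoter window, 30 (88.2%) held CCAAT, 13 (38.2%) TTTGAA and 6 (17.6%) an E2F motif. Over measured genes with a window the shares were 34.1%, 10.8% and 3.19%. Some of the histone windows share sequence.

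Upstream of replication, 13 of 16 G1 cyclins, kinases and E2F factors fell, with a median of −0.83. CDC25A, the phosphatase that activates G1 kinases, changed by −1.91 (SE 0.145, adjusted p = 0.00316). The transcription factor MYBL2 changed by −1.58 (SE 0.121, adjusted p = 0.00316), cyclin E2 (CCNE2) by −1.54 (SE 0.108, adjusted p = 0.00284) and the repressor E2F8 by −1.39 (SE 0.106, adjusted p = 0.00316). CCND1, cyclin D1, read 8.73 (PD184352) and 9.24 (PLX4720) at 24 h, against 9.74 (PD184352) and 9.74 (PLX4720) at 6 h, and DMSO cells read 10.78 at 24 h, against 11.19 at 6 h. It was therefore already below the DMSO level at 6 h, and its further change was −0.75 (SE 0.134, adjusted p = 0.0225), −1.01 with PD184352 and −0.50 with PLX4720. Cyclin E1 (CCNE1, −0.10), TFDP1 (−0.03) and cyclin D2 (CCND2, 0.12) were not called.

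The CDK inhibitor and pocket protein list showed 4 falls and no rise among 15 genes. The 4 were LIN9 at −1.13, a DREAM subunit, the pocket protein RBL1 at −1.11, the DREAM subunit LIN54 at −0.55 and CDKN1B, which encodes p27, at −0.35 (SE 0.0765, adjusted p = 0.0387). CDKN1A, which encodes p21, read 8.59 (PD184352) and 8.50 (PLX4720) at 24 h, against 8.56 (PD184352) and 8.45 (PLX4720) at 6 h, with a change of 0.04 (SE 0.0716, adjusted p = 0.797). CDKN1C changed by 0.23, CDKN2B by 0.03 and RB1 by 0.12, none of them called. CDKN2A, which encodes p16, changed by −0.07 with PD184352 and 0.12 with PLX4720.

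Enzymes that make nucleotides fell in 19 of 23 cases, with a median of −0.65. RRM2, the ribonucleotide reductase subunit made in S phase, changed by −1.53 (SE 0.143, adjusted p = 0.0048), with −0.53 in DMSO cells. Thymidylate synthase (TYMS) changed by −1.25 (SE 0.0715, adjusted p = 0.00242) and RRM1 by −1.10 (SE 0.0758, adjusted p = 0.0028). The mitochondrial folate enzyme MTHFD2 changed by −1.11 (SE 0.105, adjusted p = 0.00481) on the brightest of its 4 rows, and its other rows gave between −0.38 and 0.10, none called. RRM1 has a second, dimmer row at 0.24 that was not called.

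**Figure D2:**
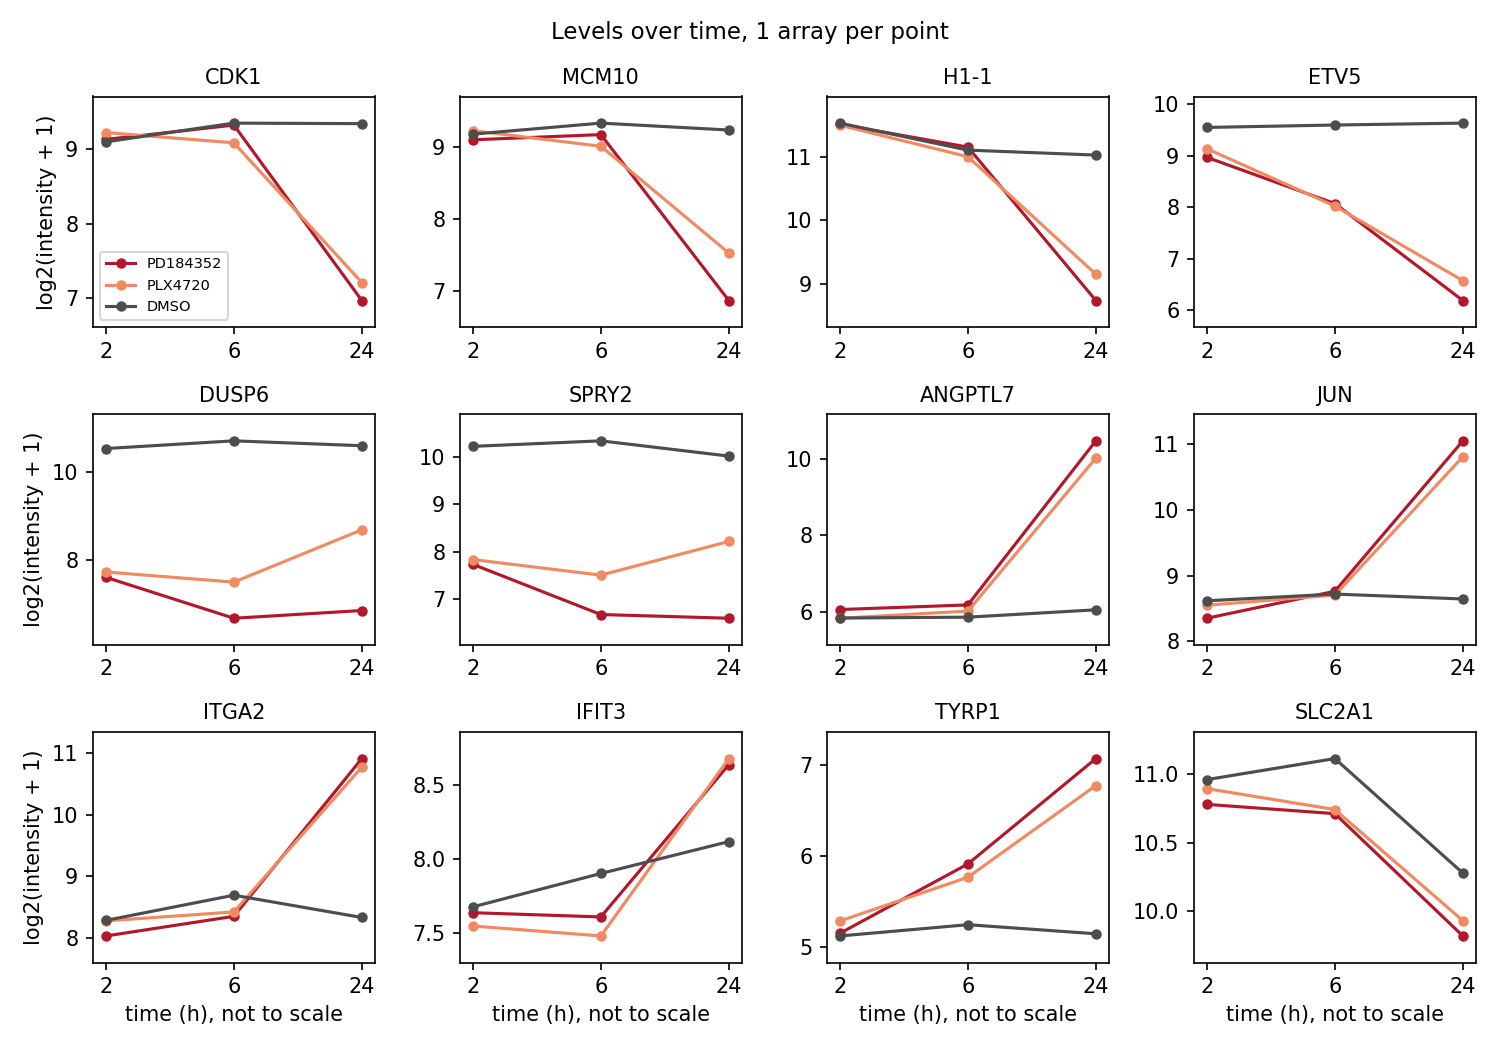
Level of 12 genes on each of the 9 arrays (log2(intensity + 1), y axes, which differ between panels) at 2, 6 and 24 h, with PD184352, PLX4720 and DMSO, 1 array per point. CDK1 leaves the DMSO level between 6 h and 24 h, while DUSP6 and SPRY2 stand below the DMSO level at all 3 times.

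Transcripts for growth had smaller median changes than those of the cell cycle. Ribosome biogenesis factors fell in 18 of 28 cases, with a median of −0.49 and −0.08 in DMSO cells. This count was 10 without PD184352 24 h and 11 without PD184352 6 h. LYAR, a nucleolar protein, changed by −1.07 (SE 0.0935, adjusted p = 0.00403), and NOLC1, a nucleolar phosphoprotein, by −0.92 (SE 0.0937, adjusted p = 0.00563). RRP1B and RRP12, both of ribosomal RNA processing, changed by −0.78 and −0.65. Cytosolic ribosomal proteins mostly were not called, with 4 lower and 1 higher of 25 and a median of −0.21. Their 4 falls became 1 without PD184352 24 h, 2 without PLX4720 24 h and 0 without PD184352 6 h. They became 11 with the dimmest 50% of rows left out, 7 with the dimmest 25% left out, with a pseudocount of 16, with a trended and robust variance prior or with 1 row per gene in the fit, and 1 without the compound block. RPS13 changed by −0.43 (SE 0.0758, adjusted p = 0.0217), and DMSO cells changed by −0.52. RPS3 (−0.47) and RPL37 (0.46) were called on rows with levels below 6. Of 30 oxidative phosphorylation genes, 2 rose and 0 fell: the coactivator PPARGC1A rose by 1.42 (SE 0.133, adjusted p = 0.0047), with 0.73 in DMSO cells, and NDUFB5, a subunit of complex I, by 0.36 (SE 0.0857, adjusted p = 0.0497).

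Part of the aminoacyl-tRNA synthetases and of the ATF4 targets for amino acid supply fell under inhibitor, while the medians of both lists in DMSO cells were above 0. Of 18 synthetases 7 fell, with a median of −0.27 and 0.13 in DMSO cells, a count that became 1 without PD184352 24 h and 2 without PD184352 6 h. MARS1, the methionyl-tRNA synthetase, read 10.60 (PD184352) and 10.88 (PLX4720) at 24 h, against 11.49 (PD184352) and 11.44 (PLX4720) at 6 h. DMSO cells read 11.85 at 24 h, against 11.51 at 6 h. The inhibitor arrays were lower at 24 h and the DMSO array was higher, and the change with inhibitor was −0.73 (SE 0.102, adjusted p = 0.0125). Of 20 ATF4 targets 9 fell (5 without PD184352 24 h). SLC1A5, a glutamine transporter, changed by −1.32 (SE 0.118, adjusted p = 0.00421), and SLC7A5, the leucine transporter, by −1.31 (SE 0.0736, adjusted p = 0.00242). SLC3A2, the partner chain of SLC7A5, changed by −0.71. SLC7A11, the cystine transporter, changed by −0.76 with inhibitor and by 0.61 in DMSO cells. With the DMSO change taken off, 2 of the 20 ATF4 targets and 0 of the 18 synthetases were called.

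Heat shock proteins and chaperonins fell in 9 of 20 cases, with a median of −0.27. The constitutive chaperone HSPA8 changed by −1.07 (SE 0.0968, adjusted p = 0.00444), the co-chaperone FKBP4 by −0.85, HSPH1 by −0.73 and BAG3 by −0.69. HSPA5, the chaperone of the endoplasmic reticulum, was the list's only rise, at 0.46 (SE 0.109, adjusted p = 0.0483), and it was lost without the PLX4720 24 h array. Glycolysis genes fell in 6 of 19 cases, but their median of −0.16 was the same to 2 decimals in DMSO cells. The glucose transporter SLC2A1 read 9.82 (PD184352) and 9.93 (PLX4720) at 24 h, against 10.71 (PD184352) and 10.74 (PLX4720) at 6 h. DMSO cells read 10.28 at 24 h, against 11.11 at 6 h, a change of −0.83, next to −0.85 with inhibitor. LDHA changed by −0.54 and GAPDH by −0.52 with inhibitor, and by −0.43 and −0.42 in DMSO cells.

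Genes of ERK output were examined next, since they show whether the pathway's own targets moved between 6 h and 24 h. Of 13 ERK feedback genes, 2 rose and 1 fell, with a median of 0.11. The list stood −1.02 from the DMSO level at 6 h and −0.79 at 24 h, as medians. DUSP6, the phosphatase of ERK, read 6.84 (PD184352) and 8.69 (PLX4720) at 24 h, against 6.67 (PD184352) and 7.49 (PLX4720) at 6 h. DMSO cells read 10.61 at 24 h, against 10.72 at 6 h. With PLX4720 the level was 1.20 higher at 24 h and with PD184352 0.18, and all 4 inhibitor arrays remained below both DMSO arrays. The mean change of 0.69 (SE 0.239, adjusted p = 0.123) was not called. SPRY2, an inhibitor of receptor signalling to RAS, read 6.59 (PD184352) and 8.21 (PLX4720) at 24 h, against 6.67 (PD184352) and 7.50 (PLX4720) at 6 h, while DMSO cells read 10.02 at 24 h, against 10.34 at 6 h. Its changes of −0.08 with PD184352 and 0.71 with PLX4720 had opposite signs, and the mean was not called (adjusted p = 0.348). SPRY4, of the same family, read 6.48 (PD184352) and 7.21 (PLX4720) at 24 h, against 6.51 (PD184352) and 6.96 (PLX4720) at 6 h, and DMSO cells read 10.90 at 24 h, against 10.87 at 6 h.

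Of the other feedback genes, SPRED2, which brings neurofibromin to RAS, changed by 0.41 (SE 0.0843, adjusted p = 0.034), and NF1, which encodes neurofibromin, by 0.36 (SE 0.0786, adjusted p = 0.0379) on the brightest of its 3 rows. The list had 0 rises without PLX4720 24 h or PLX4720 6 h, and 1 without PD184352 6 h. ERRFI1, an inhibitor of the EGF receptor, read 7.30 (PD184352) and 7.60 (PLX4720) at 24 h, against 7.97 (PD184352) and 8.05 (PLX4720) at 6 h. DMSO cells read 10.35 at 24 h, against 10.49 at 6 h. It moved further below the DMSO level, with a change of −0.56 (SE 0.0881, adjusted p = 0.0166), and this call was lost without either PD184352 array. SPRED1 changed by −0.41 with PD184352 and 0.03 with PLX4720. DUSP4 (0.08), DUSP5 (0.18), DUSP7 (−0.09), SPRY1 (0.02), SPRED3 (0.19) and IL17RD (−0.05) were not called.

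In the MAPK activity list, 3 of 10 fell and 1 rose, and it shares genes with the feedback list. ETV4 read 6.78 (PD184352) and 6.98 (PLX4720) at 24 h, against 9.61 (PD184352) and 9.29 (PLX4720) at 6 h, while DMSO cells read 10.004 at 24 h, against 10.12 at 6 h. Its relative ETV5 read 6.19 (PD184352) and 6.58 (PLX4720) at 24 h, against 8.07 (PD184352) and 8.02 (PLX4720) at 6 h, and DMSO cells read 9.64 at 24 h, against 9.60 at 6 h. Both were below the DMSO level at 6 h with each inhibitor and lower again at 24 h, and the change of ETV5 was −1.67 (SE 0.121, adjusted p = 0.00302). PHLDA1, an ERK-induced gene, read 11.31 (PD184352) and 11.31 (PLX4720) at 24 h, against 10.73 (PD184352) and 10.88 (PLX4720) at 6 h, a rise of 0.51 (SE 0.0791, adjusted p = 0.0164), with DMSO cells at 11.89 at 24 h, against 11.77 at 6 h. EPHA2 (0.10) and EPHA4 (−0.13) were not called.

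Among 28 immediate-early genes, 4 (14.29%) rose and 3 (10.71%) fell, against 8.72% and 9.89% of all genes, with a median of 0.07. JUN, a subunit of the AP-1 factor, read 11.05 (PD184352) and 10.81 (PLX4720) at 24 h, against 8.76 (PD184352) and 8.70 (PLX4720) at 6 h. DMSO cells read 8.65 at 24 h, against 8.72 at 6 h. The JUN level at 24 h was above all 7 other arrays with either inhibitor, and the change was 2.20 (SE 0.0824, adjusted p = 0.00242). FOSL2, its dimer partner, changed by 0.63 (SE 0.0959, adjusted p = 0.0155), with −0.46 in DMSO cells, and FOS by 0.60 (SE 0.0936, adjusted p = 0.0162). FOSL1 changed by −0.41 (SE 0.074, adjusted p = 0.0239), but DMSO cells changed by −0.88. CCN1, a secreted matricellular protein, changed by −0.59 with inhibitor and −0.74 in DMSO cells, and the sign of both FOSL1 and CCN1 turned when the DMSO change was taken off. SRF, the serum response factor, changed by −0.31 (SE 0.0718, adjusted p = 0.045). MYC (0.08), EGR1 (0.09), IER3 (0.28) and JUNB (0.10) were not called. The 4 rises became 1 without PD184352 24 h and 2 without PD184352 6 h, and the 3 falls became 1 without either PD184352 array or PLX4720 6 h.

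Among 31 receptor tyrosine kinases and ligands, 8 rose and 4 fell. ERBB3, the neuregulin receptor, read 11.28 (PD184352) and 10.99 (PLX4720) at 24 h, against 10.28 (PD184352) and 10.09 (PLX4720) at 6 h, with a change of 0.95 (SE 0.0743, adjusted p = 0.00328) and 0.22 in DMSO cells. HBEGF, a ligand of the EGF receptor, changed by 0.73 (SE 0.0852, adjusted p = 0.00763), ERBB4 by 0.65 (SE 0.0745, adjusted p = 0.00737) and the VEGF receptor FLT1 by 0.57 (SE 0.0767, adjusted p = 0.0109). EPHB4 (−0.53), IGF1R (−0.48), EPHA3 (−0.45) and the ligand TGFA (−0.43) fell. EGFR (−0.06) was not called. With all 6 inhibitor arrays the list had 6 rises and 5 falls. The rises became 4 without PD184352 24 h and 5 without PD184352 6 h or PLX4720 6 h, and the falls became 2 without PLX4720 24 h. Within the pathway itself, 3 of 15 genes rose, a count that became 1 without PD184352 24 h or PLX4720 6 h. RRAS, a small GTPase related to RAS, read 9.97 (PD184352) and 10.01 (PLX4720) at 24 h, against 8.91 (PD184352) and 8.88 (PLX4720) at 6 h, a rise of 1.09 (SE 0.0737, adjusted p = 0.00275) with 0.01 in DMSO cells. RPS6KA2, an RSK kinase, changed by 0.42 with inhibitor and by 0.43 in DMSO cells, and RASGRP3, an exchange factor for RAS, by 0.31 (SE 0.0715, adjusted p = 0.0444).

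The largest rises were of genes that the lists mostly do not hold. ANGPTL7 read 10.48 (PD184352) and 10.03 (PLX4720) at 24 h, against 6.18 (PD184352) and 6.01 (PLX4720) at 6 h. DMSO cells read 6.05 at 24 h, against 5.86 at 6 h. At 6 h it stood 0.24 above the DMSO level as a mean of both inhibitors, and at 24 h it stood apart from all other arrays. P2RX7, a cation channel gated by ATP, read 11.43 (PD184352) and 11.40 (PLX4720) at 24 h, against 8.73 (PD184352) and 8.52 (PLX4720) at 6 h, a change of 2.79 (SE 0.0816, adjusted p = 0.00242), with 0.55 in DMSO cells. ITGA2, the collagen-binding integrin chain, read 10.91 (PD184352) and 10.77 (PLX4720) at 24 h, against 8.35 (PD184352) and 8.42 (PLX4720) at 6 h, a change of 2.45 (SE 0.0856, adjusted p = 0.00242), with −0.36 in DMSO cells. MOXD1, a monooxygenase-like protein, changed by 2.45 (SE 0.0717, adjusted p = 0.00242), and SYT11, a synaptotagmin of vesicle traffic, by 2.37 (SE 0.0771, adjusted p = 0.00242) with 0.58 in DMSO cells. SLC16A4, of the monocarboxylate transporter family, changed by 2.27 with inhibitor and 0.87 in DMSO cells. Each of these genes was higher on both 24 h inhibitor arrays than on the other 7 arrays.

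The remaining genes of the 15 largest rises were the long non-coding RNAs LINC00518 (2.29, brighter of 2 rows, the other at 0.07), MROCKI (2.15) and LINC00589 (1.99), the matricellular protein CCN3 (2.000), LRRC15 (1.98), SLFN5 (1.87), the membrane scaffold ANK3 (1.84), the guidance factor SEMA3D (1.80) and JUN. The 15 largest falls also held LPL, lipoprotein lipase, at −2.12 (SE 0.195, adjusted p = 0.00458). TM4SF1, a membrane protein of the tetraspanin-like family, was among them at −2.11 (SE 0.0931, adjusted p = 0.00242). So were FAM111B at −2.09 (SE 0.198, adjusted p = 0.00483) and MRGPRX4, a G protein-coupled receptor, at −2.06 (SE 0.141, adjusted p = 0.00278). LPL read 6.60 (PD184352) and 7.24 (PLX4720) at 24 h, against 9.12 (PD184352) and 8.95 (PLX4720) at 6 h, with DMSO cells at 9.93 at 24 h, against 9.85 at 6 h. TM4SF1 read 6.18 (PD184352) and 6.63 (PLX4720) at 24 h, against 8.42 (PD184352) and 8.61 (PLX4720) at 6 h, with DMSO cells at 9.24 at 24 h, against 9.56 at 6 h. Both were below the DMSO level at 6 h and lower at 24 h.

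**Figure D3:**
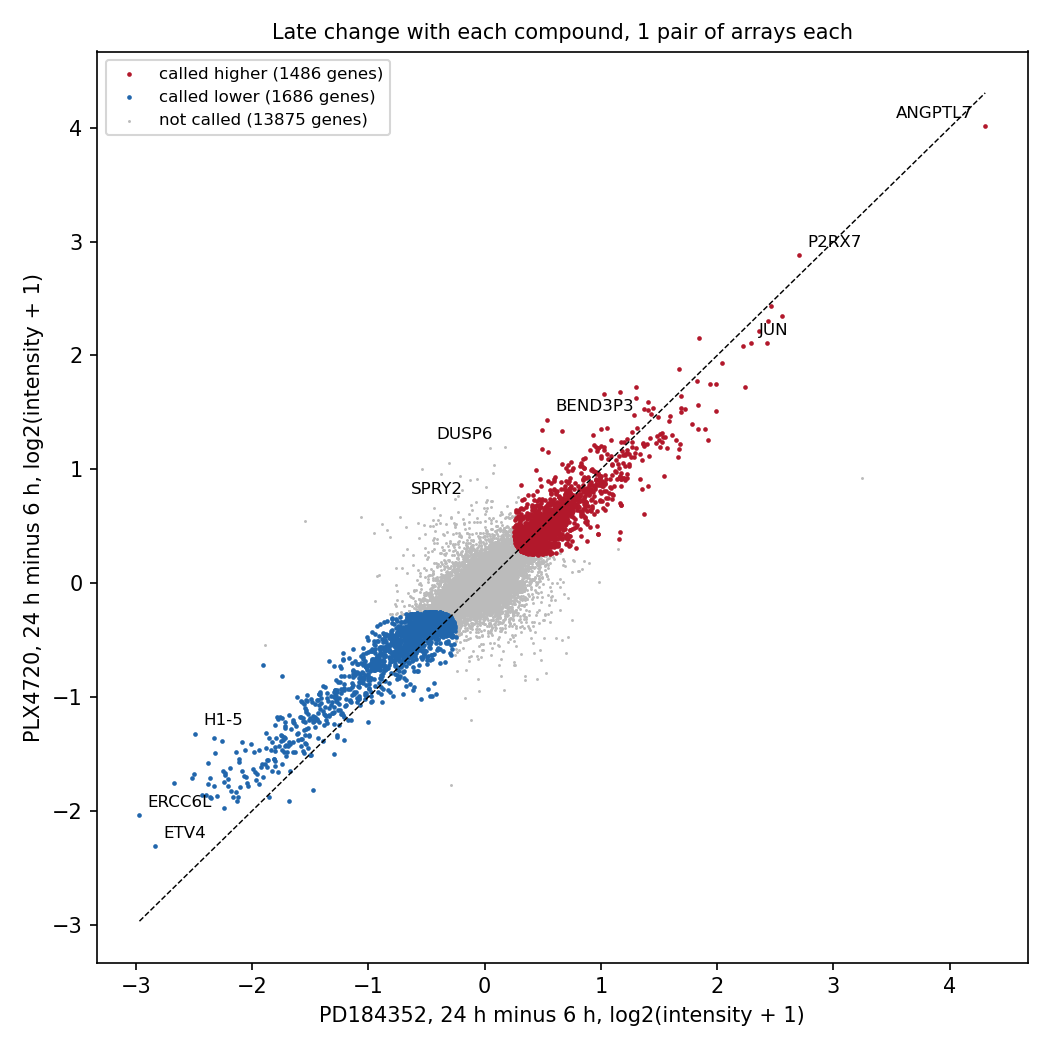
Change between 6 h and 24 h (24 h minus 6 h, log2(intensity + 1)) with PD184352 (x axis) and with PLX4720 (y axis) for 17047 genes, 1 pair of arrays each. Red points are the 1486 genes called higher, blue points the 1686 called lower and grey points the rest. The dashed line marks equal changes, and most blue points lie above it, where the fall was larger with PD184352.

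The interferon-stimulated list rose in part, with 14 of 30 genes higher, against 8.72% of all genes, 1 lower and a median of 0.28 (0.04 in DMSO cells). IFIT3 and IFIT2, RNA-binding proteins of the antiviral response, changed by 1.11 (SE 0.0809, adjusted p = 0.00302) and 0.93 (SE 0.08, adjusted p = 0.00389). IFIT3 read 8.64 (PD184352) and 8.68 (PLX4720) at 24 h, against 7.61 (PD184352) and 7.48 (PLX4720) at 6 h, while DMSO cells read 8.12 at 24 h, against 7.90 at 6 h. At 6 h it stood below the DMSO level and at 24 h above it. PARP9, which acts with DTX3L in this response, changed by 1.07 with inhibitor and by 0.85 in DMSO cells. SAMD9 changed by 0.76 (SE 0.0716, adjusted p = 0.00481). OAS3, a sensor of double-stranded RNA, was the gene that fell, at −0.67 (SE 0.0835, adjusted p = 0.00928). The count of rises became 6 without PD184352 24 h, 9 without PLX4720 24 h and 5 without PLX4720 6 h, and 0 with the DMSO change taken off.

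Antigen presentation genes rose in 6 of 14 cases (3 without PD184352 24 h or PLX4720 24 h or PLX4720 6 h). CIITA, the master regulator of class II genes, read 9.02 (PD184352) and 9.18 (PLX4720) at 24 h, against 7.66 (PD184352) and 7.95 (PLX4720) at 6 h, and DMSO cells read 8.42 at 24 h, against 8.63 at 6 h. It was below the DMSO level at 6 h and above it at 24 h, with a change of 1.30 (SE 0.0775, adjusted p = 0.00242). The class II chain HLA-DRA changed by 0.67 (SE 0.0734, adjusted p = 0.00667), with 0.28 in DMSO cells, and its chaperone CD74 by 0.56 (SE 0.0715, adjusted p = 0.00989). TAP2, a chain of the peptide transporter, fell, at −0.83 (SE 0.078, adjusted p = 0.0048). Of 17 cytokines and chemokines, 4 rose, or 2 without either PD184352 array: CCL2, which attracts monocytes, at 1.17 (SE 0.0813, adjusted p = 0.00281), CSF1, a macrophage growth factor, at 0.59, IL1A at 0.48 and TGFB1 at 0.38. VEGFA fell, at −0.47 (SE 0.0717, adjusted p = 0.0151).

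Genes of cell identity were then taken by list. Of 18 melanocyte lineage and pigment genes 9 (50%) rose and 1 (5.56%) fell, against 8.72% and 9.89% of all genes. Their median change was 0.34. TYRP1, an enzyme of melanin synthesis, read 7.07 (PD184352) and 6.78 (PLX4720) at 24 h, against 5.91 (PD184352) and 5.77 (PLX4720) at 6 h. DMSO cells read 5.15 at 24 h, against 5.25 at 6 h. The TYRP1 level at 6 h was above the DMSO level and that at 24 h higher again, with a change of 1.08 (SE 0.079, adjusted p = 0.00304). The endothelin receptor EDNRB changed by 0.96 (SE 0.0715, adjusted p = 0.00314), with 0.36 in DMSO cells, the melanosomal protein GPNMB by 0.72 (SE 0.0737, adjusted p = 0.00566), SOX10 by 0.56 and MITF by 0.56. PMEL, the fibril protein of melanosomes, fell, at −0.36 (SE 0.0779, adjusted p = 0.0384). This call was lost in the fit with all 6 inhibitor arrays, before any array was left out. MLANA (0.28), OCA2 (0.00) and SLC45A2 (−0.09) were not called. With the DMSO change taken off, 0 of the 18 were called.

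Factors of dedifferentiation and epithelial-mesenchymal change gave 4 rises (20%) and 3 falls (15%) among 20, against 8.72% and 9.89% of all genes. Besides JUN, the neural crest receptor NGFR changed by 1.35 (SE 0.0909, adjusted p = 0.00274), ZEB2 by 0.77 (SE 0.0831, adjusted p = 0.00633) and the receptor MET by 0.33 (SE 0.0794, adjusted p = 0.0478). LEF1, a partner of beta-catenin, changed by −0.62 (SE 0.072, adjusted p = 0.00743), ZEB1 by −0.39 and TWIST1 by −0.33, and the list had 1 fall without either 24 h array or without PD184352 6 h. In the neural crest and neuronal adhesion list, 8 of 18 rose and 1 fell. SEMA3D read 9.06 (PD184352) and 9.37 (PLX4720) at 24 h, against 7.24 (PD184352) and 7.60 (PLX4720) at 6 h, with DMSO cells at 6.61 at 24 h, against 6.40 at 6 h. The adhesion protein CHL1 changed by 1.42 (SE 0.0854, adjusted p = 0.00242), with 0.47 in DMSO cells, and the guidance factors SEMA3C and SEMA6A by 1.38 (SE 0.111, adjusted p = 0.00347) and 0.93 (SE 0.131, adjusted p = 0.0126). SEMA3A fell, at −0.50 (SE 0.0916, adjusted p = 0.025).

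FOXO targets rose in 8 of 19 cases and fell in 3, or in 2 with all 6 inhibitor arrays. KLHL24 changed by 1.70 (SE 0.0944, adjusted p = 0.00242), with 0.45 in DMSO cells, and SESN3, a regulator of mTORC1, by 0.95 (SE 0.0735, adjusted p = 0.00316), with 0.50 in DMSO cells. The ubiquitin ligase subunit FBXO32 changed by 0.72 and FOXO4 by 0.64. The 3 falls, BNIP3 (−0.48), CDKN1B and SESN1 (−0.30), became 0 without PD184352 24 h and 1 without PLX4720 24 h or PD184352 6 h. Of 21 p53 targets, 3 (14.29%) were higher and 4 (19.05%) lower, against 8.72% and 9.89% of all genes, with a list median of 0.04. With all 6 inhibitor arrays these counts were 2 and 3. TP53INP1 changed by 1.20 (SE 0.0726, adjusted p = 0.00244) and TP53I3 by 0.78 (SE 0.0719, adjusted p = 0.00458), while the death receptor FAS changed by −0.85 (SE 0.0829, adjusted p = 0.00505), with −0.59 in DMSO cells. The p53 falls became 1 without PD184352 24 h or PD184352 6 h or PLX4720 6 h and 2 without PLX4720 24 h. In the BCL2 family, 1 of 13 rose and 1 fell (7.69% each, near the shares over all genes), both of them BH3-only genes. BMF read 9.45 (PD184352) and 9.001 (PLX4720) at 24 h, against 8.44 (PD184352) and 8.11 (PLX4720) at 6 h, with DMSO cells at 7.37 at 24 h, against 7.36 at 6 h and a change of 0.95 (SE 0.0762, adjusted p = 0.00346). PMAIP1, which encodes NOXA, read 5.79 (PD184352) and 6.46 (PLX4720) at 24 h, against 7.13 (PD184352) and 7.14 (PLX4720) at 6 h, with DMSO cells at 8.53 at 24 h, against 8.45 at 6 h and a change of −1.01 (SE 0.163, adjusted p = 0.0179). Each moved further from the DMSO level than it stood at 6 h.

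Lysosome and autophagy genes rose in 8 of 25 cases, with a median of 0.20, and the count became 4 without PD184352 24 h or PD184352 6 h and 2 without PLX4720 24 h or PLX4720 6 h. The protease CTSK changed by 0.83 (SE 0.0737, adjusted p = 0.00419), CTSO by 0.63 and TPP1 by 0.46, and the galactosidase GLA fell, at −0.67 (SE 0.0785, adjusted p = 0.00771). Cholesterol genes rose in 5 of 17 cases, or 3 without PD184352 24 h, and EBP fell. INSIG1, which holds back SREBP activation, changed by 0.90 (SE 0.0736, adjusted p = 0.00366), the sterol reductase TM7SF2 by 0.76 (SE 0.0757, adjusted p = 0.00542) and the sterol carrier STARD4 by 0.56. Of 16 fatty acid genes 4 fell and 3 rose. The falls were LPL, fatty acid synthase (FASN, −0.63), the elongase ELOVL6 (−0.61) and the carrier FABP7 (−0.54). SCD (0.44), LPIN1 (0.41) and ACSL4 (0.36) rose, but the fit with all 6 inhibitor arrays, none left out, had only 1 rise in this list.

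Matrix genes rose in 7 of 28 cases and fell in 0. The rises became 3 without PD184352 24 h and 4 without PD184352 6 h, but 11 with the dimmest 25% or 50% of rows left out, with quantile normalization, with a pseudocount of 16 or with the mean of a gene's rows. The collagen chain COL5A2 read 10.75 (PD184352) and 10.81 (PLX4720) at 24 h, against 9.66 (PD184352) and 9.69 (PLX4720) at 6 h, a change of 1.10 (SE 0.0718, adjusted p = 0.00269), with −0.05 in DMSO cells. The laminin chains LAMB2 and LAMB1 changed by 0.79 (SE 0.0726, adjusted p = 0.00458) and 0.56 (SE 0.0944, adjusted p = 0.02), and the fibrillin FBN1 by 0.59. Integrins split, with 3 of 13 higher and 4 lower, or 2 lower without either 24 h array or PD184352 6 h. ITGA2, ITGB8 (0.75) and ITGAV (0.38) rose. ITGA9 changed by −0.74 (SE 0.104, adjusted p = 0.0125) and ITGB3 by −0.55 (SE 0.118, adjusted p = 0.038), while in DMSO cells these 2 changed by 0.55 and 0.38. Among proteases and plasminogen activators 5 of 19 rose, or 3 without PLX4720 6 h. The membrane protease MMP15 changed by 1.53 (SE 0.0764, adjusted p = 0.00242), MMP14 by 0.65 (SE 0.0821, adjusted p = 0.0094) and the gelatinase MMP2 by 0.57 (SE 0.0858, adjusted p = 0.0147), while MMP16 fell, at −0.75 (SE 0.0911, adjusted p = 0.00861).

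YAP and TEAD targets fell in 6 of 17 cases and rose in 3. Their median was −0.26 with inhibitor and −0.25 in DMSO cells, and it was 0.14 with the DMSO change taken off. CCN3 changed by 2.000 (SE 0.099, adjusted p = 0.00242) and ANKRD1 by 0.95 (SE 0.0804, adjusted p = 0.00384), with −0.26 and −0.41 in DMSO cells. The ectonucleotidase NT5E changed by −0.83 (SE 0.074, adjusted p = 0.00425). The falls became 3 without PD184352 24 h and 2 without PD184352 6 h.

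Some of the called genes also moved in DMSO cells. Of the 1486 genes called higher, 151 (10.2%) also moved up in DMSO cells by at least 50% of the change with inhibitor, and of the 1686 called lower 290 (17.2%) moved down by that much. Over the genes called higher the median change was 0.51 with PD184352, 0.49 with PLX4720 and 0.05 in DMSO cells. Over those called lower it was −0.59 with PD184352, −0.45 with PLX4720 and −0.13 in DMSO cells. HAS2, a hyaluronan synthase, read 6.67 (PD184352) and 6.83 (PLX4720) at 24 h, against 5.23 (PD184352) and 5.34 (PLX4720) at 6 h. DMSO cells read 6.09 at 24 h, against 5.09 at 6 h. HAS2 was higher at 24 h with and without inhibitor, by 1.46 with inhibitor and 1.000 in DMSO cells. PPARGC1A, the transporter ABCA8 (1.38 with inhibitor and 0.70 in DMSO cells), the Notch target HEY1 (1.22 and 0.62) and PARP9 were the other 4 largest rises of this kind. CYP1A1, a target of the aryl hydrocarbon receptor, changed by −1.54 with inhibitor and −0.79 in DMSO cells, and the Wnt receptor FZD4 by −1.32 and −0.71. MALT1 (−1.28 and −0.64), SHISAL1 (−1.20 and −0.83) and TM4SF18 (−1.18 and −0.66) completed the 5 largest falls of this kind. With 1 DMSO array at each time these values carry no error.

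**Figure D4:**
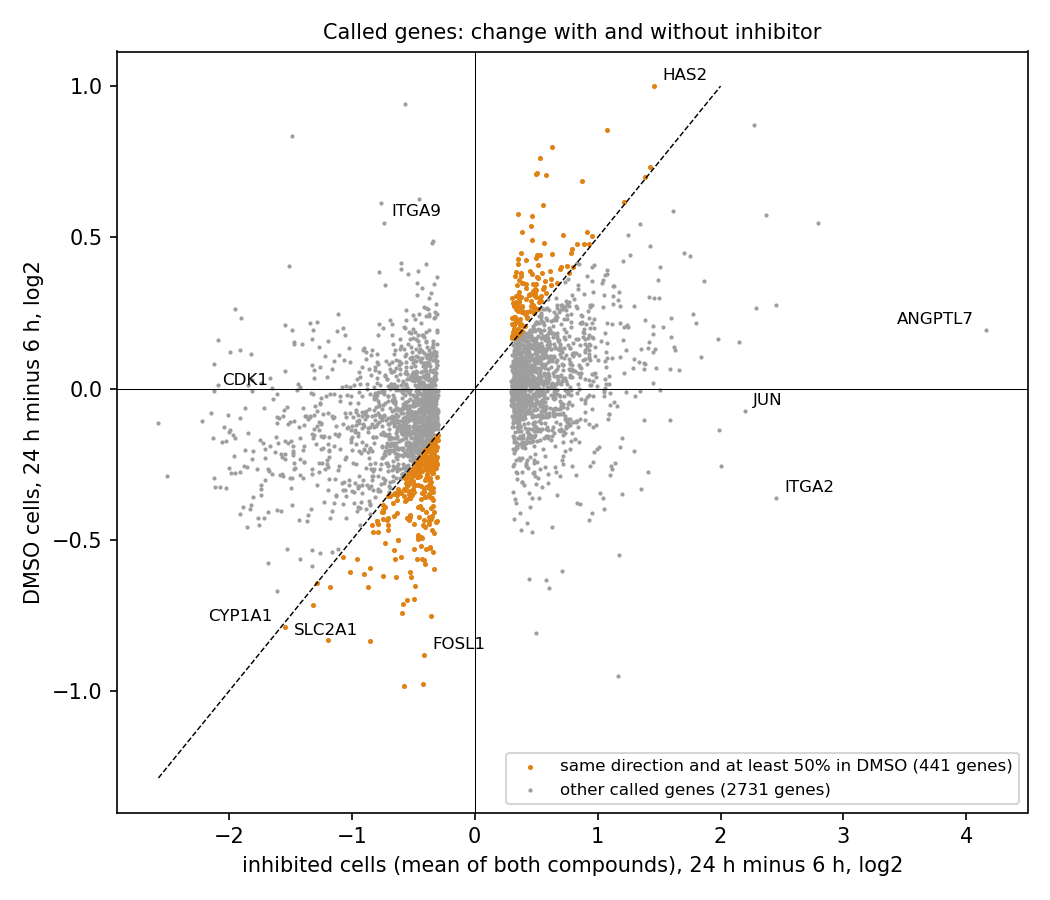
Change between 6 h and 24 h (24 h minus 6 h, log2) with inhibitor (x axis, mean of both compounds) and in DMSO cells (y axis, 1 pair of arrays) for the 3172 called genes. Orange points are the 441 genes whose DMSO change had the same sign and at least 50% of the size, bounded by the dashed line. CDK1, JUN and ANGPTL7 lie near 0 on the DMSO axis, while HAS2, SLC2A1 and FOSL1 do not.

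The inhibitors differed more in the size of the falls than in that of the rises. Of the genes called lower, 1407 of 1686 (83.5%) fell further with PD184352, and of those called higher 869 of 1486 (58.5%) rose further with it, while over all 17047 genes the change was larger in size with PD184352 in 9885 (58.0%). Doses differed, 1 µM and 0.4 µM, and each value is 1 pair of arrays, so no test was made. Among the falls with the widest gap, LOC401324 changed by −1.91 with PD184352 and −0.72 with PLX4720, at levels below 6. The histones H1-5 and H2BC14, ERCC6L and C18orf54 followed. H2BC14 changed by −2.33 with PD184352 and −1.36 with PLX4720, and C18orf54 by −1.74 with PD184352 and −0.82 with PLX4720. Of the rises with the widest gap, BEND3P3 (0.54 with PD184352, 1.43 with PLX4720) and BDH2 (0.49 with PD184352, 1.35 with PLX4720) were larger with PLX4720. OTOGL (1.37 with PD184352, 0.60 with PLX4720), KCNJ2-AS1 (1.16 with PD184352, 0.39 with PLX4720) and ST8SIA6 (1.16 with PD184352, 0.45 with PLX4720) were larger with PD184352. These 5 genes and LOC401324 all had levels below 7 on the 4 arrays.

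Most called genes stood near the DMSO level at 6 h, as genes at large may also have done. At 6 h, 1404 of the 1486 genes called higher and 1597 of the 1686 called lower stood within 0.5 of the DMSO array. Over all genes the median inhibitor minus DMSO difference at 6 h was −0.0018, and their share within 0.5 was not counted. Of the 82 genes called higher that stood further away, 49 moved towards the DMSO level and 33 away from it, and of the 89 called lower 11 moved towards it and 78 away. The same 6 h arrays enter both the distance and the change, so this is a description. Of the genes moving towards it, 30 called higher and 5 called lower ended within 0.25 of the DMSO array at 24 h. ITGB8 read 11.51 (PD184352) and 11.70 (PLX4720) at 24 h, against 10.75 (PD184352) and 10.96 (PLX4720) at 6 h, with DMSO cells at 11.62 at 24 h, against 11.39 at 6 h. MAP3K1, a kinase of the JNK pathway, read 8.85 (PD184352) and 9.09 (PLX4720) at 24 h, against 8.15 (PD184352) and 8.30 (PLX4720) at 6 h, with DMSO cells at 9.001 at 24 h, against 9.13 at 6 h. RBMS2, GLRX and PAG1 completed the 5 nearest, with changes of 0.53, 0.41 and 0.41. In the other direction CPM, a membrane carboxypeptidase, read 7.92 (PD184352) and 8.17 (PLX4720) at 24 h, against 9.13 (PD184352) and 8.99 (PLX4720) at 6 h, with DMSO cells at 8.18 at 24 h, against 8.26 at 6 h. IRF4, a factor of the melanocyte lineage as well as of lymphocytes, changed by −0.33, PKP4-AS1 by −0.33, SDHCP2 by −0.45 and RPS3 by −0.47. ETV5, CCND1, ERRFI1, LPL and PMAIP1 were among the genes that moved away from the DMSO level between 6 h and 24 h.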

How the data were processed

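The authors' deposited table holds linear intensity values, 1 column for each of 9 combinations of treatment and time, on a gene-level exon array. RMA, limma and R 2.8.0 are named in the submitters' processing notes, with no role given, and for the genome build the sources used here give nothing. From the deposited intensity the value log2(intensity + 1) was computed, with no further normalization. Of 35446 rows, the 19380 with 1 gene symbol in the platform annotation were tested; 3339 with several and 12727 with none were left out. A RefSeq gene table (GRCh38.p14) changed 0 symbols.

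The fit was limma 3.58.1 in R 4.3.3 (lmFit, eBayes) on 4 arrays with compound as a block, with 1 residual degree of freedom. Counts are of 17047 genes, each by its row with the highest mean over 9 arrays. On simulated data with 200 of 19380 rows changed, the fit found 92% of the changes of 0.5 (log2) and 100% of those of 1. It also called 25 unchanged rows. The simulated noise was drawn from this fit's own spread, which is between inhibitors and not between cultures. In the data 18.6% of genes were called, so these rates need not hold there.

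Named genes were the 15 largest changes each way, all members of the ERK feedback, MAPK activity, immediate-early and CDK inhibitor lists, up to 4 of each other list by size, and the 5 leading each way for drift in DMSO cells, for a difference between compounds and for a return to the DMSO level. Other genes are named where a count of a list is spelled out. Members, lists (38, with 701 of 841 genes on a row) and tests were chosen with earlier results of these data known. Alternatives changed the block, the arrays, the filter on dim rows, the pseudocount, the normalization, the variance prior, the rows and the DMSO change.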

Additional observations from a re-analysis of the deposited data

Results flagged for a closer look

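For 15 of the 240 named genes the change between 6 h and 24 h had opposite signs with the 2 inhibitors, 1 pair of arrays each. The fit, whose residual spread is the difference between the inhibitors, cannot call such a gene, and 0 of the 15 were called. In 3 of them the larger of both changes was at least 0.25 on the log2 scale, a threshold of this re-analysis, and the difference was not tested. SPRY2 changed by −0.08 with PD184352 and 0.71 with PLX4720, a difference of −0.79 (PD184352 minus PLX4720). SPRED1 changed by −0.41 with PD184352 and 0.03 with PLX4720, a difference of −0.44. The factor KLF6 changed by −0.34 with PD184352 and 0.01 with PLX4720, a difference of −0.35, and DMSO cells changed by −0.33. Groups of 1 array allow no look for single samples that stand apart.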

How the results depend on the processing

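The comparison is paired by compound, and the labels give no replicate numbers for a further pairing. Without the compound block 1567 genes were higher and 1837 lower. With the DMSO change taken off, 49 genes were higher and 49 lower, against 1486 and 1686. The calls were then 19 for mitosis, 0 for DNA replication, 0 for recombination and 0 for interferon-stimulated genes, and the signs of CCN1 (0.15), FOSL1 (0.47), RPS13 (0.0858) and RPS6KA2 (−0.0092) turned. That fit has a larger standard error by construction, with 1 DMSO array at each time. Every call in it lay just under the threshold, so its counts do not set one list apart from another. The list medians in it were −1.29 for mitosis, −1.12 for DNA replication, −0.97 for recombination and 0.175 for interferon-stimulated genes. Over all rows of the table, 384 genes were higher and 461 lower, with 4 interferon-stimulated genes higher, and the cause was not tested. The fits that leave out 1 array at a time also hold the 2 h inhibitor arrays, and with all 6 arrays they called 1502 genes higher and 1799 lower. With 1 array left out, 783 to 1076 genes were higher, 944 to 1668 lower, and 5 to 11 interferon-stimulated genes higher. The number of genes flagged for a change in DMSO cells was 441 at a share of 50%, 1172 at 25% and 145 at 75%. Of the 176 named genes called, 31 lost their call without PD184352 24 h, 30 without PD184352 6 h, 22 without PLX4720 6 h, 13 without PLX4720 24 h and 148 with the DMSO change taken off, the 4 whose sign turned included. The other alternatives, on block, arrays, dim rows, pseudocount, quantile normalization, variance prior and rows of a gene, moved both gene counts by less than 1.5 times. Among lists, the p53 rises (3) became 5 with the dimmest 25% of rows left out and 6 with the dimmest 50% left out, which also gave 7 immediate-early rises (4) and 2 cytokine rises (4). For lists with 4 or fewer called members the count rests on single genes.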

Other observations

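In the fit over all rows of the table, 16066 rows have no single gene symbol, and of these 168 were higher and 147 lower at 24 h than at 6 h under inhibitor. They are not named here. Genes with several rows did not always move together. Among the genes called higher, 160 of 206 further rows had the same sign as the brightest row, and among those called lower 239 of 330 did.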
